A study of Zea mays with 8 samples.

Results

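Tassel regions that held a peak with both tagged forms of RAMOSA1 (RA1) and no peak in the ear were examined here. RA1 is a maize C2H2 zinc finger protein of the inflorescence, the flowering branch system that is male in the tassel and female in the ear. It acts as a repressor through EAR motifs that recruit the co-repressor RAMOSA1 ENHANCER LOCUS2, and it makes the meristems that form spikelet pairs determinate, so that ra1 mutants carry extra branches in both organs. Chromatin immunoprecipitation followed by sequencing (ChIP-seq) recovers the DNA fragments that a protein is cross-linked to, and a peak is a stretch where such fragments pile up above input DNA. The regions were chosen by measured values, the peak calls of the authors. Merging the peaks of all 4 lists on chromosomes 1 to 10, where an overlap of 1 bp was enough to join peaks, gave 25032 regions. Of these, 390 held a tassel HA peak and a tassel YFP peak and no peak of either ear list. They made up most of the 621 tassel regions found with both tags, since the other 231 also held an ear peak.

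Both tags were used in both tissues, which gave 4 ChIP libraries without replicates, and 4 input libraries went with them. None of the libraries is listed as a ChIP from plants without a tagged RA1. Per the labels, tassel and ear primordia of 1 to 5 mm were pooled, the tassels about 4 weeks and the ears 6 weeks after planting, from plants recorded as ra1/ra1 in B73. The RA1-HA and RA1-YFP transgenes were translational fusions with an N-terminal HA-FLAG or YFP tag, meant for the native expression domain and able to complement ra1. They had been transformed into HiII, crossed to ra1-R and backcrossed, and the families segregated for transgene and ra1. Anti-HA and anti-GFP antibodies were used, so tag, transgene and antibody change together and the tags are not replicates of each other. Tissue, growth time and pool also change together between tassel and ear. In pooled primordia, fewer cells with bound RA1 and less RA1 bound per cell cannot be told apart. Peak lists hold no expression, so the tissue labels could not be checked against marker genes.

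Membership was set by the peak calls themselves, so the presence of both tassel peaks and the lack of an ear peak are the selection and not a result. A missing ear peak says that the site did not pass the authors' limit there. The lowest summit heights listed on these chromosomes were 3 fragments for HA and 4 for YFP in the ear. Much higher ear peaks could still lie close to the limit. An ear YFP peak of 12 fragments had a peak score of 50.25, where the limit is a score of 50. The summit height is the number of fragments piled up at a peak's highest point, not scaled to library depth, which is unknown here. Regions whose HA and YFP heights summed to 50 or more were called strong, a limit chosen with earlier results of these data known. By it, 58 regions were strong and 332 weak. Regions are not replicates, so differences between sets of regions are described by medians and shares with 95% intervals that cover counting error only, and no test was run on them.

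The strong set held the highest peaks of the tassel libraries. All 20 of the highest tassel HA peaks and 16 of the 20 highest tassel YFP peaks lay in these regions, and the other 4 lay in tassel regions with an ear peak. Every one of the 17 tassel HA peaks and 23 of the 26 tassel YFP peaks with a score of 3100 or more were here as well, the score being read as a significance value from the authors' peak caller, and many strong peaks being tied at 3100. Both scores reached that value in 17 regions and 1 of the 2 tags did so in another 4. Heights chose the strong set, so these counts describe it only.

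The 10 highest of the strong regions, all in assembly AGPv2 of B73, ranged from 201 to 338 summed fragments. The highest was chr8:134902740-134908848, with summits of 174 fragments in HA and 164 in YFP. The region chr1:168908566-168909196 reached 162 in HA and 169 in YFP. At chr4:156341289-156342426 there were 154 and 167 fragments. In all 3 the taller tag exceeded the other by a small margin, and the sides differed, with HA ahead in the first and YFP in the next 2. Chromosome 5 held chr5:54214503-54215067, with 152 fragments in HA and 168 in YFP, and chr5:118614977-118615784, with 119 and 123. Heights at chr7:53726127-53726974 were 149 in HA and 158 in YFP, and those at chr2:48392508-48393445 were 112 and 115. These 4 were again nearly level between the tags, with YFP slightly ahead each time. The last 3 were chr8:9420278-9420853 (115 in HA, 110 in YFP), chr1:51463251-51463851 (103 and 121) and chr3:8626485-8627105 (98 and 103). The genes at these places were not analysed here, as no annotation of this assembly was used.

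**Figure D1:**
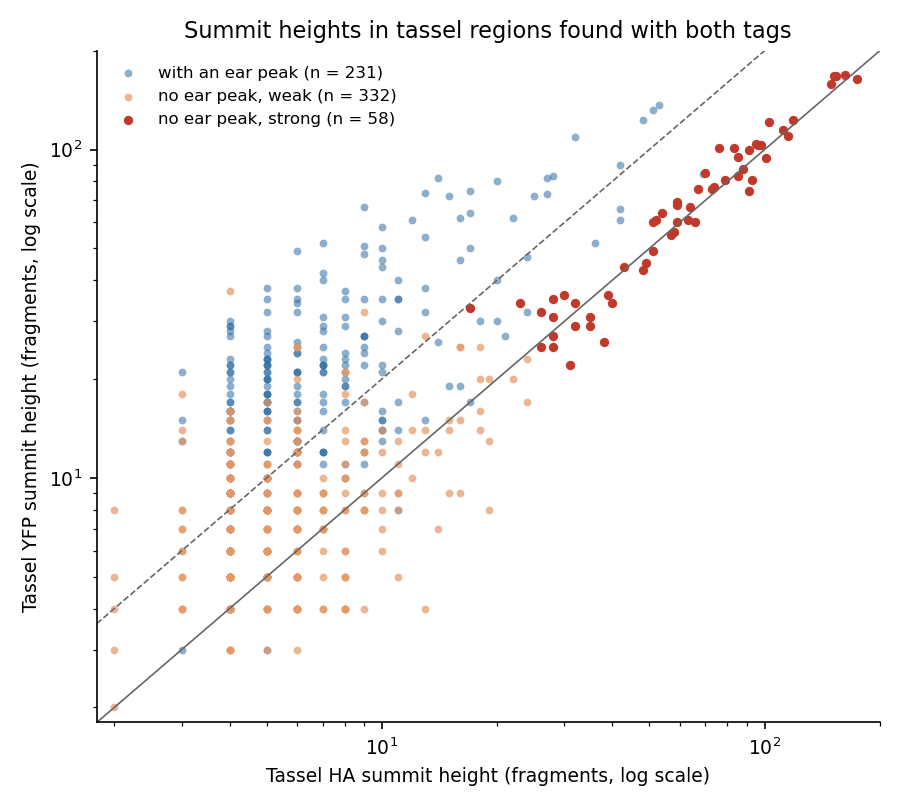
Tassel HA summit height (x axis, fragments, log scale) against tassel YFP summit height (y axis, fragments, log scale) for the 58 strong and 332 weak regions without an ear peak and the 231 regions with one. The solid line marks equal heights and the dashed line YFP at 2 times HA; the strong regions without an ear peak lie along the solid line, and most regions with an ear peak lie above the dashed one.

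Heights with HA and YFP were nearly equal in most of the strong set. The median HA height was 61 fragments (range 17 to 174) and the median YFP height 65.5 (range 22 to 169). YFP was the higher in 34 regions and HA in 24. The log2 ratio of YFP over HA had a median of 0.05 (interval -0.05 to 0.10), with an SD of 0.24 over the 58 regions. If heights were independent fragment counts, counting alone would give an SD of 0.28, so the strong regions differed from one another in ratio by no more than that. In the 40 regions with an ear peak that passed the same limit, whose summed heights were lower (median 79.5 fragments against 126.5), the median log2 ratio was 1.69 (interval 1.49 to 2.14) with an SD of 0.73, against 0.41 from counting. There HA had a median height of 17 fragments and YFP one of 61.5.

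Counted region by region, a YFP summit at least 2 times the HA summit was found in 43.5% of all 621 tassel regions with both tags. It was found in 0 of the 58 strong regions without an ear peak (exact interval 0 to 6.16%), in 89 of the 332 weak ones (26.8%, interval 22.1 to 31.9), and in 33 of the 40 strong regions with an ear peak (82.5%, interval 67.2 to 92.7). An HA summit at least 2 times the YFP summit occurred in 1.61% of the 621, which were 10 regions, all of them weak and without an ear peak. The exact interval of the YFP share of both heights lay above 50% in 26.4% of the 621 and below 50% in 0.161%. It lay above 50% in 1 of the 58 strong regions and in 21 of the 332 weak ones, against 35 of the 40 strong regions with an ear peak. The interval held 50% in 57 of the 58.

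The strong regions farthest from equality differed less than 2-fold between the tags. The lowest log2 ratios were -0.55 at chr2:51861529-51861890 (38 fragments in HA, 26 in YFP), -0.49 at chr6:43097153-43097749 (31 and 22) and -0.28 at chr1:166323329-166324196 (91 and 75). At the other end, the ratio was 0.41 at chr1:214119441-214119944 (76 in HA, 101 in YFP), 0.56 at chr1:101897659-101898068 (23 and 34) and 0.96 at chr1:172947901-172948212 (17 and 33). The last is the single strong region whose interval excluded equality, and at 50 summed fragments it sits exactly at the height limit.

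Members on either side of that limit were alike in height by construction. Besides the region just named, those just inside were at chr8:163378857-163379203 (26 fragments in HA, 25 in YFP) and at chr7:12981013-12981441 (28 and 25). Just outside lay chr5:92281213-92281861 (24 and 23), chr5:82289582-82290254 (18 and 25) and chr2:54763016-54764842 (22 and 20). Near-equal heights therefore continued below the limit in the first and last of those just outside. The one between them had a log2 ratio of 0.47.

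The tag ratio changed with height, with the widest spread at summed heights of 30 to 49 fragments and the highest median at 15 to 19. With summed heights of 200 or more, the median log2 ratio was 0.07 with an SD of 0.09 (10 regions). It was 0.06 with an SD of 0.16 at 100 to 199 (28 regions) and -0.09 with an SD of 0.35 at 50 to 99 (20 regions). At 30 to 49 the median was 0.15 but the SD rose to 1.03 (19 regions), since 10 regions lay within 0.5 of equality and 5 had YFP at 2 times HA or more. Below that the SD fell again. At 20 to 29 the median was 0.53 with an SD of 0.92 (38 regions), and at 15 to 19 it was 1.00 with an SD of 0.77 (68 regions). At 10 to 14 the median was 0.49 with an SD of 0.63 (144 regions), and below 10 it was 0.00 with an SD of 0.40 (63 regions). Regions with an ear peak followed another course, with medians of 0.00 below 10 (5 regions), 0.85 at 10 to 14, 1.26 at 15 to 19, 1.77 at 20 to 29, 1.96 at 30 to 49, 2.10 at 50 to 99 and 1.37 at 100 to 199 (12 regions). The regions with and without an ear peak thus had medians closest to each other at the lowest heights and farthest apart at 50 to 99. At the lowest heights both tags are near the smallest pileups that were listed, 2 fragments in either tassel list, and ratios there can take few values.

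**Figure D2:**
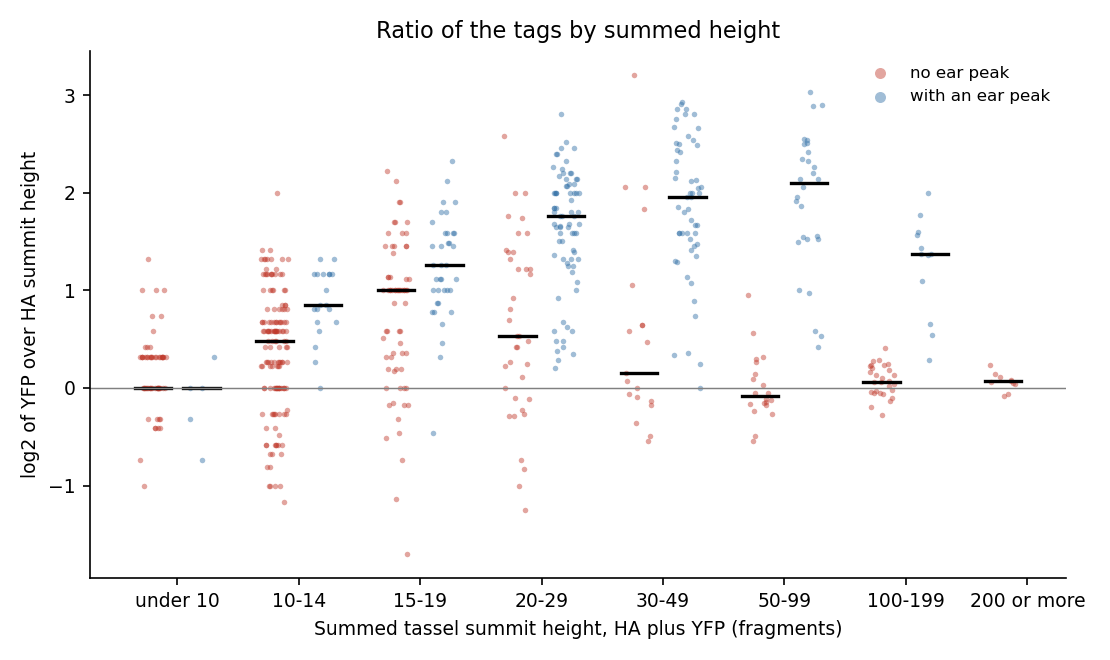
The log2 ratio of YFP to HA summit height (y axis) in classes of summed tassel height (x axis, fragments), for regions without an ear peak (red) and with one (blue). Points are regions and black bars are medians, which in the class of 50 to 99 are -0.09 without and 2.10 with an ear peak.

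Weak regions rested on few fragments. HA heights had a median of 5 (range 2 to 24) and YFP heights one of 8 (range 2 to 37), and in 149 of 332 (44.9%, interval 39.4 to 50.4) at least 1 tag had a height under 5. Both scores reached 100 in 115 of them (34.6%) and in all 58 strong regions. The median log2 ratio of the weak set was 0.39 (interval 0.32 to 0.49), with YFP higher in 220, HA higher in 66 and equal heights in 46. Over all weak regions together, the SD of 0.72 did not exceed the 0.85 that counting would give at these heights. By class of summed height, the SD ran from 0.40 below 10 fragments to 0.92 at 20 to 29 and 1.03 at 30 to 49. Counting was not worked out for each class. The pooled values therefore do not show whether the higher weak regions varied beyond it.

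A few weak regions were far from equality all the same. The most YFP-rich were at chr3:37773808-37774153 (4 fragments in HA, 37 in YFP, log2 ratio 3.21), at chr6:159232478-159232984 (3 and 18, 2.58) and at chr3:18812310-18812843 (3 and 14, 2.22). The most HA-rich were at chr10:121006611-121006961 (13 in HA, 4 in YFP, -1.70), at chr2:174081672-174082163 (19 and 8, -1.25) and at chr6:164868810-164869291 (9 and 4, -1.17). Only the first of the HA-rich regions had an interval wholly on the HA side, with a YFP share of 23.5% (interval 6.81 to 49.9).

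The positions of the summits, which the selection did not use beyond peak overlap, matched between the tags. In strong regions the HA and YFP summits lay a median of 5 bp apart (interval 3 to 8), and in 42 of 58 (72.4%, interval 59.1 to 83.3) they lay within 10 bp. In weak regions the median was 6 bp (interval 4 to 8), and 194 of 332 (58.4%, interval 52.9 to 63.8) were within 10 bp. The upper quartile was 14.5 bp in the strong and 57.2 bp in the weak set. Strong regions with an ear peak had a median of 3 bp (interval 2 to 6), with 29 of 40 (72.5%) within 10 bp, so the strong sets with and without an ear peak did not differ in this measure beyond their intervals. The shorter of the 2 tassel peaks lay wholly within the longer in 46 of the 58 strong and 226 of the 332 weak regions, and the overlap covered less than 50% of the shorter peak in 5 weak regions and in 0 strong ones.

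Strong regions were wider than weak ones but still compact. Their median width was 556 bp (interval 483 to 583) against 359 bp (348 to 378) in the weak set. The median HA peak in them was 501 bp wide and the median YFP peak 459.5 bp, and in the weak set these widths were 340 and 282 bp. HA peaks were the wider in 46 of 58 strong and 244 of 332 weak regions, and in 28 of the 40 strong regions with an ear peak. Over all regions of each of these sets, the HA width less the YFP width had a median of 63.5, 58 and 40.5 bp. Merged widths cannot be set against regions with an ear peak, since those include the wide ear peaks, but single tassel peaks in the same class of height can. At HA heights of 40 to 79 fragments the median HA peak was 500 bp wide without an ear peak (quartiles 455.8 and 555.5, 22 regions) and 394 bp with one (quartiles 364.5 and 556.5, 7 regions). At YFP heights of 40 to 79 the widths were 453 bp (quartiles 396.5 and 532.5, 19 regions) and 358 bp (quartiles 314 and 427, 29 regions). The quartile ranges overlapped in both cases. Within these classes the peaks without an ear peak were also higher, with median heights of 59 against 48 fragments in HA and 61 against 52 in YFP. The part of height in the widths was not tested.

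Scores per fragment, a measure of significance relative to height, were also compared within classes of height. Heights were not equal within the classes. Besides those given for 40 to 79, the median HA heights at 20 to 39 were 28 without and 24 with an ear peak. Median YFP heights were 26.5 and 25 at 20 to 39, and 103 and 87 at 80 or more. At HA heights of 40 to 79, the median score per fragment of summit height was 31.5 without an ear peak (quartiles 25.8 and 35.8) and 20.8 with one (quartiles 18.4 and 23.6). At YFP heights of 40 to 79 it was 33.4 (quartiles 30.5 and 36.9) against 20.8 (quartiles 18.0 and 24.2). The quartile ranges at 40 to 79 did not overlap for either tag. At YFP heights of 80 or more, where many scores are tied at 3100, the medians were 30.1 (quartiles 25.3 and 32.4) and 22.7 (quartiles 19.9 and 25.6), so these ranges overlapped. They also overlapped at YFP heights of 20 to 39, with 23.7 (quartiles 19.1 and 28.3) against 18.8 (quartiles 16.6 and 22.7), but not at HA heights of 20 to 39, with 23.8 (quartiles 22.2 and 27.6) against 16.8 (quartiles 14.9 and 18.96). At HA heights of 5 to 9, where many weak regions lie, the medians were 17.1 and 16.0, and at YFP heights of 5 to 9 they were 19.6 and 19.2, with overlapping quartiles. At heights of 40 to 79 the median peak widths given above were, like the scores per fragment, larger without an ear peak. At YFP heights of 80 or more the median widths were close, 537 bp without and 525.5 bp with an ear peak. The parts of width and height in the score differences were not tested.

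Only 12 of the 390 regions were wider than 1 kb, 2 of them strong, against 49 of the 231 regions with an ear peak, whose width includes ear peaks. The widest was the highest region, on chromosome 8, which measured 6109 bp. A single HA peak spanned it, while YFP had 4 peaks there with heights of 164, 68, 10 and 97 fragments. The next widest strong regions were those at chr4:156341289-156342426 (1138 bp) and at chr8:44429701-44430663 (963 bp, 59 fragments in HA and 68 in YFP). Among weak regions, picked after their widths were seen, the widest lay at chr1:271345219-271348613 (3395 bp), with 3 HA peaks of up to 5 fragments and 1 YFP peak of 13.

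Strong and weak regions differed in where they lay along the chromosomes, though not under every setting. Each chromosome was measured from its start to the last peak of any list, and the first and last 20% were taken as its outer 40%. These outer parts held 16 of the 58 strong regions (27.6%, interval 16.7 to 40.9) and 171 of the 332 weak ones (51.5%, interval 46.0 to 57.0). They held 27 of the 40 strong regions with an ear peak (67.5%, interval 50.9 to 81.4) and 88 of the 191 weak ones with an ear peak (46.1%, interval 38.9 to 53.4). Of the 5888 tassel regions with a single tag and no ear peak, they held 47.4% (interval 46.1 to 48.7). The strong regions without an ear peak were thus the set with the lowest outer share among these 5, and its interval met none of the others except that of the weak regions with an ear peak, which begins at 38.9. An even spread along the span would place 40% in the outer parts, and the interval of the strong regions, up to 40.9, holds that value. With the span cut into 10 equal bins, the last 2 bins held 1 and 2 strong regions, against 33 and 52 weak ones. The first 2 bins held 8 and 5 strong regions, against 60 and 26 weak ones. Among the outer bins, the low counts of strong regions were thus in the last 2 only. Strong regions were most frequent in bin 3, with 11, and bin 8, with 9. With the outer 20% taken instead, the shares were 17.2% of strong regions (interval 8.59 to 29.4) and 33.7% of weak ones (interval 28.7 to 39.1). These intervals overlapped. They also overlapped at the outer 40% when only tassel peaks with a score of 100 or more were kept. The weak share was then 48.7% (interval 39.3 to 58.2), with the strong share unchanged. The middle 20% of the span held like shares of both, 10 of 58 (17.2%) and 60 of 332 (18.1%). Centromere positions in this assembly were not used here.

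**Figure D3:**
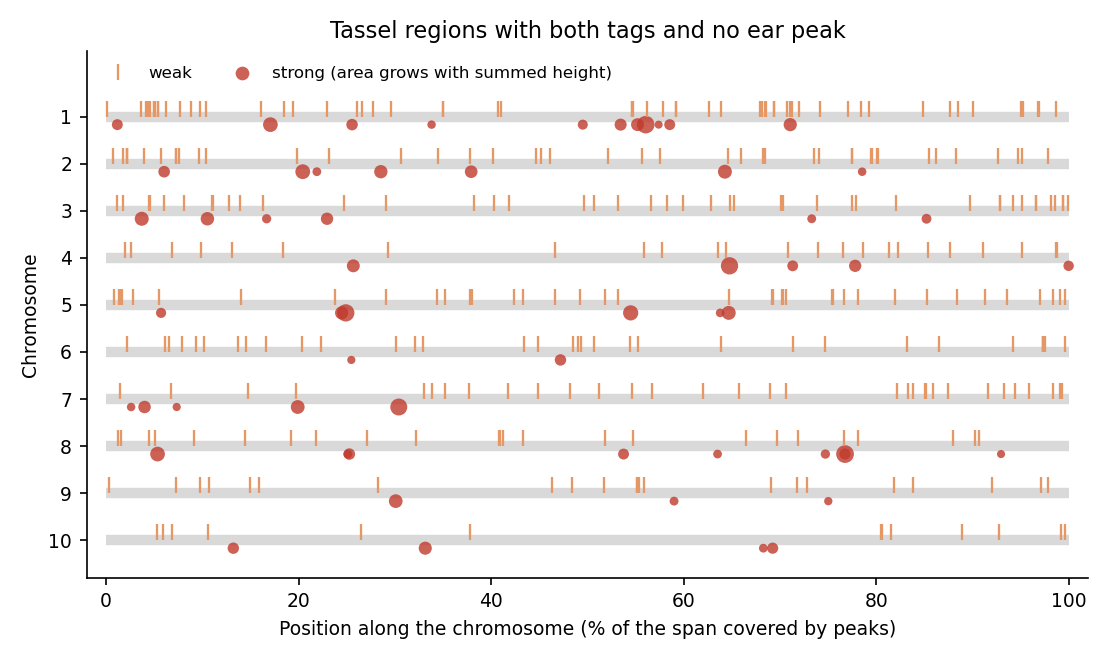
Positions of the 390 regions along the 10 chromosomes (y axis), in percent of the span covered by peaks (x axis). Ticks are the 332 weak regions and filled circles the 58 strong ones, with an area that grows with summed height; 16 of the 58 circles lie in the outer 40% of the span, and 6 lie close together near the middle of chromosome 1.

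All 10 chromosomes held both strong and weak regions. Per 100 Mb of span there were 2.82 strong and 16.1 weak regions. Chromosome 8 had the most strong regions for its span, 9 or 5.12 per 100 Mb, and chromosome 6 the fewest, 2 or 1.18 per 100 Mb. Weak regions were sparsest on chromosome 10, with 13 or 8.66 per 100 Mb, and on chromosome 4, with 24 or 9.94 per 100 Mb, and the highest value was 19.9 on chromosome 1. The strong share of all members ran from 5.71% on chromosome 6 to 27.3% on chromosome 8. On chromosome 1, 6 of its 11 strong regions fell between positions 149207523 and 176412621, a stretch of 27.2 Mb that was picked out after the positions were seen. Besides the 3 regions already named from this stretch, it held chr1:149207523-149207940 (48 fragments in HA, 43 in YFP), chr1:161046041-161046598 (67 and 76) and chr1:176412116-176412621 (58 and 56). It also held 5 weak regions.

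Most of the 390 regions stood alone. Another member lay within 100 kb of 24 regions (6.15%, interval 3.98 to 9.02), namely 3 of the 58 strong and 21 of the 332 weak ones, and the median gap to the next member was 1883 kb for strong and 1560 kb for weak regions. The 24 formed 11 groups, of which 9 were pairs and 2 were runs of 3. In 5 of the groups, with 11 members, the smallest gap was under 2 kb. Of the 5888 tassel regions with a single tag and no ear peak, 4.74% (interval 4.21 to 5.31) had a member within 100 kb, which overlaps the interval of the members. Within 10 kb the shares were 3.33% of members (interval 1.79 to 5.63) and 1.12% of those regions (interval 0.868 to 1.42), and these intervals did not overlap. For the next counts, tassel regions with a single tag served as neighbours whether or not they held an ear peak. One lay within 10 kb of 4 strong regions (6.90%, interval 1.91 to 16.7) and of 51 weak ones (15.4%, interval 11.7 to 19.7), against 8 of the 40 strong regions with an ear peak (interval 9.05 to 35.6), so the intervals overlapped. Another member, strong or weak, lay within 10 kb of 2 of the 58 strong regions (3.45%, interval 0.420 to 11.9). Another tassel region with both tags and an ear peak, strong or weak, lay that near to 8 of the 40 strong regions with an ear peak, with an interval of 9.05 to 35.6% that overlaps the former.

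The 2 strong members were the neighbours on chromosome 8. The smaller, chr8:134900969-134901405, had 54 fragments in HA and 64 in YFP and ended 1334 bp before the 6109 bp region. Together they extended over 7880 bp, with 20556 bp to the nearest ear peak. One run of 3 weak regions covered 4644 bp of chromosome 6. Its members were chr6:164519779-164520908 (6 fragments in HA, 5 in YFP), chr6:164522171-164522689 (7 and 8) and chr6:164523096-164524422 (13 and 14), and an ear YFP peak of 12 fragments began 1236 bp beyond the last. Heights were close between the tags in each of the 3. The other run, on chromosome 2, extended over 84549 bp. It comprised chr2:5079576-5079897 (4 in HA, 15 in YFP), chr2:5137548-5137877 (10 and 6) and chr2:5163355-5164124 (18 and 16), so its members differed in which tag was higher.

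**Figure D4:**
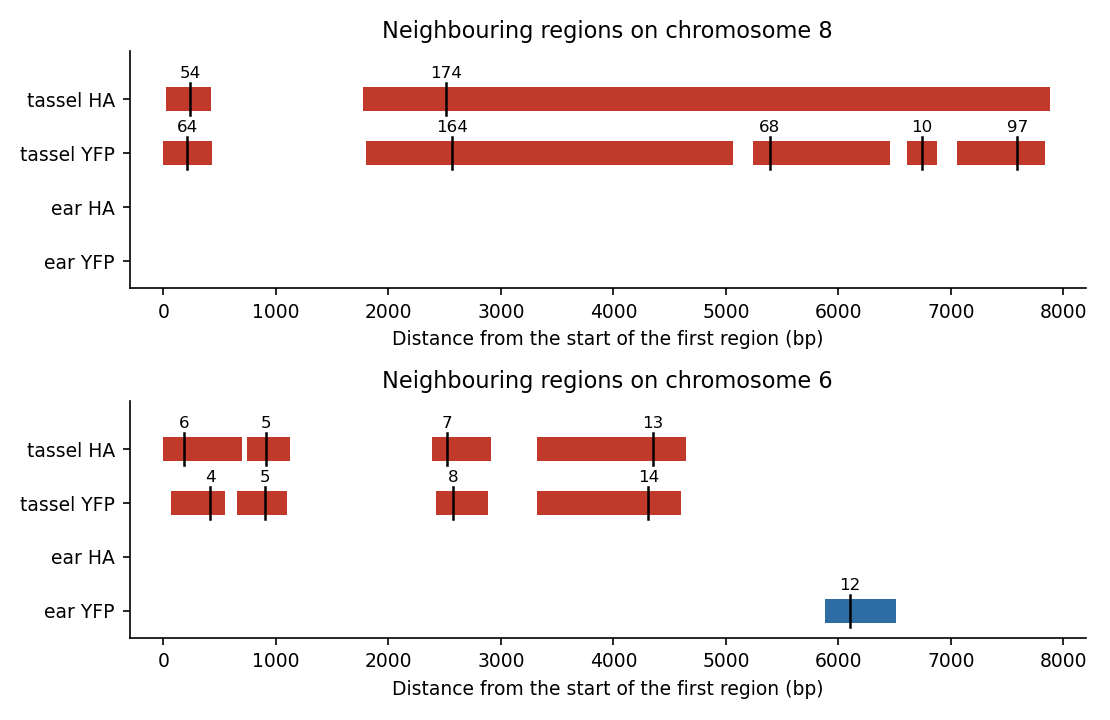
Peaks of the 4 libraries (y axis) at the neighbouring regions of chromosome 8 and at the run of 3 on chromosome 6, by distance from the start of the first region (x axis, bp). Bars are peaks, red in tassel and blue in ear, black lines are summits and the number at each is its height in fragments; on chromosome 8 the HA peak of 174 fragments covers 4 YFP peaks, and on chromosome 6 an ear YFP peak of 12 fragments lies past the last region.

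Distances to the nearest ear peak had overlapping intervals in strong and weak regions. The median was 38.4 kb in the strong set (38425.5 bp, interval 18353 to 63599) and 34.1 kb in the weak set (34138 bp, interval 28157 to 43309). For tassel regions with a single tag and no ear peak it was 33.3 kb (33340 bp, interval 31944 to 34381). An ear peak lay within 10 kb of 12 of the 58 strong regions (20.7%, interval 11.2 to 33.4), of 73 of the 332 weak ones (22.0%, interval 17.6 to 26.8) and of 23.8% of the single-tag regions. The 3 sets could not be told apart at that distance. Within 1 kb there were 0 strong regions (exact interval 0 to 6.16%) and 7 weak ones (2.11%, interval 0.852 to 4.30), against 4.57% (interval 4.05 to 5.13) of the single-tag regions. The intervals of the strong and of the weak regions both overlapped that of the single-tag regions. Where an ear peak lay within 10 kb, it had a median height of 9 fragments and a median score of 58.4 over 85 regions. The median heights of all listed ear peaks were 6 fragments for HA and 8 for YFP, so the median height of these peaks was not below that of either list. They mix both ear tags, and their scores were not compared with those of all ear peaks. Weak regions had higher median tassel scores at lower median heights, 93.6 with 5 fragments in HA and 140.5 with 8 in YFP. A site of like height could thus be listed in the tassel and not in the ear. How many weak regions this concerns was not tested.

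**Figure D5:**
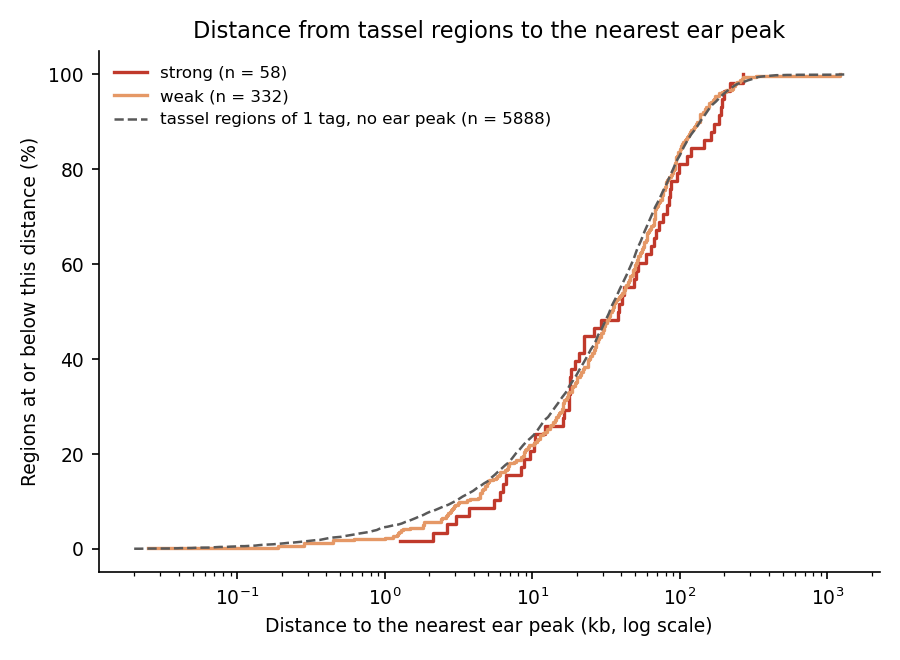
Share of regions (y axis, %) whose nearest ear peak lies at or below a given distance (x axis, kb, log scale), for the 58 strong and 332 weak regions and for 5888 tassel regions with 1 tag and no ear peak. The curves run close together, with medians of 38.4, 34.1 and 33.3 kb.

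The members nearest to an ear peak were all weak. The closest, at chr9:87571751-87571944 (4 fragments in HA, 4 in YFP), lay 25 bp from an ear YFP peak of 8 fragments. The next were at chr2:231634262-231634647 (4 and 9, 188 bp from an ear HA peak of 7 fragments) and at chr9:23447049-23447588 (2 and 2, 282 bp from an ear YFP peak of 8). They were followed by chr8:96278930-96279243 (4 and 7, 283 bp from an ear HA peak of 6) and chr1:13678808-13679394 (3 and 5, 442 bp from an ear HA peak of 8). In these 5 the lack of an ear peak rests on a short gap between peak edges. Of the strong regions, picked after the distances were seen, the nearest to an ear peak was at chr2:185942030-185942495 (28 in HA, 31 in YFP), at 1260 bp from an ear YFP peak of 11 fragments. The farthest was at chr8:94478665-94479501 (57 and 55), at 266.4 kb (266417 bp).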

How the data were processed

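RA1 ChIP-seq peak lists of pooled tassel and ear primordia were analysed, 1 library for each tissue and tag. MACS 1.4.0rc2 and CASAVA are the tools listed in the submitters' processing notes, and the series text sets the limit of the MACS p-value against input at 1e-05. Not given in the sources used here are aligner settings, read filters, library totals and which input served which ChIP library. The deposited peak score was read as a −log10 p-value multiplied by 10, because none lies below 50; no file header states it. The deposited signal of a summit is a whole-number pileup height in fragments, not scaled to depth. Input libraries enter through the authors' peak calls alone. Starts were raised by 1, the files being BED. Sequence names carry the prefix of AGPv2. The available gene table is of another assembly, so no gene or sequence is given.

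Merging, heights (the highest summit of each tag in a region), gaps between edges and exact 95% intervals (Clopper-Pearson for shares, order statistics for medians) were computed with scipy 1.17.1, pandas 2.3.3 and numpy 2.4.6 under Python 3.11.15, and checked on simulated lists. Peaks on unplaced sequence and organelle genomes were set aside. Members, limits and sets were chosen with earlier results of these data known. Named regions follow a rule: the 10 highest, the 3 most extreme ratios at each end of the strong and weak sets, the 3 widest strong regions, the 5 nearest an ear peak, runs of 3 or more, and the 3 on each side of the height limit. Others are said to be picked after their values were seen. Alternatives changed peak joining, score limit, overlap, height limits, distances and the ratio's scale.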

Additional observations from a re-analysis of the deposited data

How the results depend on the processing

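Of 86 alternative values over 14 results and 14 settings, 73 stayed within the main interval, or within 1.5 times the count, and 13 did not. A change of sign could be recorded only for the weak tag ratio, where 0 occurred. Some settings could not move some results. All 58 strong regions had both scores of 100 or more, so that score limit left their ratio, width, summit distance, outer share and ear distance unchanged. The tally is thus no measure of stability. With tassel peaks of score 100 or more there were 173 regions in place of 390, all 58 strong ones among them, and the weak log2 ratio was 0.19 in place of 0.39. A strong limit of 100 fragments left 38 strong regions. For strong regions the median distance was 115891.5 bp to ear HA peaks alone and 1120257 bp to ear peaks of score 100 or more. For weak regions it was 99648 bp, 56300.5 bp with ear YFP alone and 1062751 bp, so the absolute distances follow the length of the ear list. Members within 1 Mb were 29.3% of strong and 35.5% of weak regions, and those within 10 kb 3.31% of weak ones. The outer 20% of the span held 33.7% of weak regions (interval 28.7 to 39.1) and 17.2% of strong ones (8.59 to 29.4). The intervals of strong and weak regions, apart at the outer 40% as reported, overlapped there. With tassel peaks of score 100 or more they overlapped at the outer 40% too, 39.3 to 58.2% for weak and 16.7 to 40.9% for strong regions. Mean peak width in weak regions was 318.2 bp. The changed cutoffs for distance, span and height set their own values by construction; the cause of the lower weak ratio was not tested. No paired analysis was possible because each tissue and tag has 1 library. Unknown library depth limits every height and every missing peak.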

Other observations

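Outside the 10 chromosomes, 3 regions on unplaced sequence held both tassel peaks and no ear peak, and 0 did so on the organelle genomes. The first, from 4242243 to 4242858, had 8 fragments in HA and 7 in YFP. The second, from 4334767 to 4335339, had 13 and 4, and the third, from 4353790 to 4354115, had 5 and 5. All 3 would be weak by the limit of 50 summed fragments.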
